A study of Mus musculus with 6 samples.

Results

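The interferon response and antigen presentation were followed through 34 mouse genes in intestinal organoids, taken by symbol from a deposited table of 24956 genes. All 34 were found, each as 1 row. Organoids of Apc Min genotype in 3 cultures were treated with DM-aKG, the dimethyl ester of the metabolite α-ketoglutarate, which enters cells more readily than the acid, and 3 cultures of the same genotype served as controls. Apc Min is a germline mutation that truncates APC, a brake on Wnt signalling, so controls and treated cultures alike carried it, and intestinal organoids are epithelial cells grown in culture without the immune cells of the gut. Not given in the sources used here are the strain, age and number of the mice, the dose and duration of treatment and what the controls received. The replicates are called biological without a statement that they came from separate animals, so p-values measure only the spread between these cultures, which may be technical. The series as a whole asks what α-ketoglutarate does to Wnt signalling and differentiation.

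Interferons are secreted proteins that warn cells of infection. Type I interferons bind IFNAR1 and IFNAR2, and interferon gamma binds IFNGR1 and IFNGR2; both signal through STAT proteins and IRF transcription factors, which switch on antiviral genes through short promoter elements called ISRE and GAS. The same signals raise the machinery that shows peptides to T cells. For MHC class I, the TAP1 and TAP2 proteins pump peptides into the endoplasmic reticulum, tapasin (Tapbp) holds an empty class I chain beside that pump, and the chain (H2-K1, H2-D1) leaves for the surface with β2-microglobulin (B2m). In the gut, epithelial cells are the first barrier to viruses and can present antigen themselves.

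Values are RPKM, the authors' read counts scaled to gene length and to library size, so levels can be compared between genes. The depth worked out from the smallest values was about 32700000 to 34300000 reads per library, and a gene of 1 kb at 1 RPKM then carries a counting error of 17.1% to 17.5%. Libraries of the same group correlated at 0.990 to 0.997 (DM-aKG) and 0.994 to 0.997 (control) across genes on the log2 scale, which describes the libraries only. The epithelial markers Epcam, Cdh1, Vil1, Krt8, Krt18, Krt19 and Cdx2 were all at 34.9 RPKM or more in every library, with a summed level of 3418 to 4326 RPKM in DM-aKG and 2593 to 2648 RPKM in control libraries. The keratin genes Krt8, Krt18 and Krt19 made up most of that sum, and 5 of the 7 markers were higher while Epcam (log2 fold change -0.33; limma, adjusted p = 4.19e-04) and Cdx2 (-0.81; limma, adjusted p = 0.00146) were lower. Over all 10852 tested genes, 30.9% were higher and 24.7% lower. Of 20 immune cell markers, 19 lay under a mean of 1 RPKM, with Cd4, Cd8a, Tyrobp and Nkg7 listed at 0 in every library and Ptprc, the gene of the pan-leukocyte surface protein CD45, at no more than 0.01 RPKM. The summed level of the immune list was 2.76 to 3.85 RPKM in DM-aKG and 2.27 to 2.49 RPKM in control libraries. Within that list Cd68 was the most abundant, at 0.87, 1.88 and 2.31 RPKM in DM-aKG, against 0.75, 0.93 and 0.83 RPKM in control libraries. Its groups overlapped and it did not pass (limma, adjusted p = 0.0523). Of the others, Itgam and Csf1r were higher, and Lyz2 and Laptm5 lower, in every treated library. Such separation was found for 21.9% of all genes under a mean of 1 RPKM with a value above 0 in some library. All 12 fibroblast and muscle markers (summed level 1.1 to 1.6 RPKM in DM-aKG and 0.64 to 0.82 RPKM in control libraries) and all 7 endothelial markers (0.48 to 0.64 RPKM in DM-aKG and 0.23 to 0.35 RPKM in control libraries) were under a mean of 1 RPKM. The part of these small marker levels in the results was not tested. In bulk cultures, fewer cells of a type and less RNA per cell cannot be told apart.

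Receptor, transcription factor and class I genes were mostly expressed well above 1 RPKM, while most antiviral effectors were not. In all, 14 of the 34 had a mean under 1 RPKM over the 6 libraries. These 14 were Irf5, Nlrc5, Ciita, Cd74, Dhx58, Isg15, Ifit1, Ifit2, Ifit3, Rsad2, Oasl2, Ddx60, Mx1 and Tmem173. Closest to that limit were Ddx58 above it, with a mean of 1.94 RPKM over all 6 libraries, and Dhx58 below it, with 0.98 RPKM. The other 20 were tested in a fit over all 10852 genes with a mean of at least 1 RPKM. Of these 20, 11 were higher and 1 was lower in DM-aKG, and 8 did not pass (limma on log2(RPKM + 0.5), Benjamini-Hochberg adjusted p under 0.05). Of all tested genes 55.6% were called, so the 12 of 20 (60%) called here are near that background. Groups did not overlap for 14 of the 20 (70%), against 64.2% of all tested genes. By direction, 30.9% of all tested genes were higher and 24.7% lower, against 11 (55%) and 1 (5%) of the 20. The median log2 fold change was 0.20 over the 20 genes and 0.02 over all tested genes. After each library was centred on its median gene, 9 of the 20 were higher and 2 lower, and all tested genes then split into 2790 higher and 3340 lower, against 3354 higher and 2679 lower without centring.

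**Figure D1:**
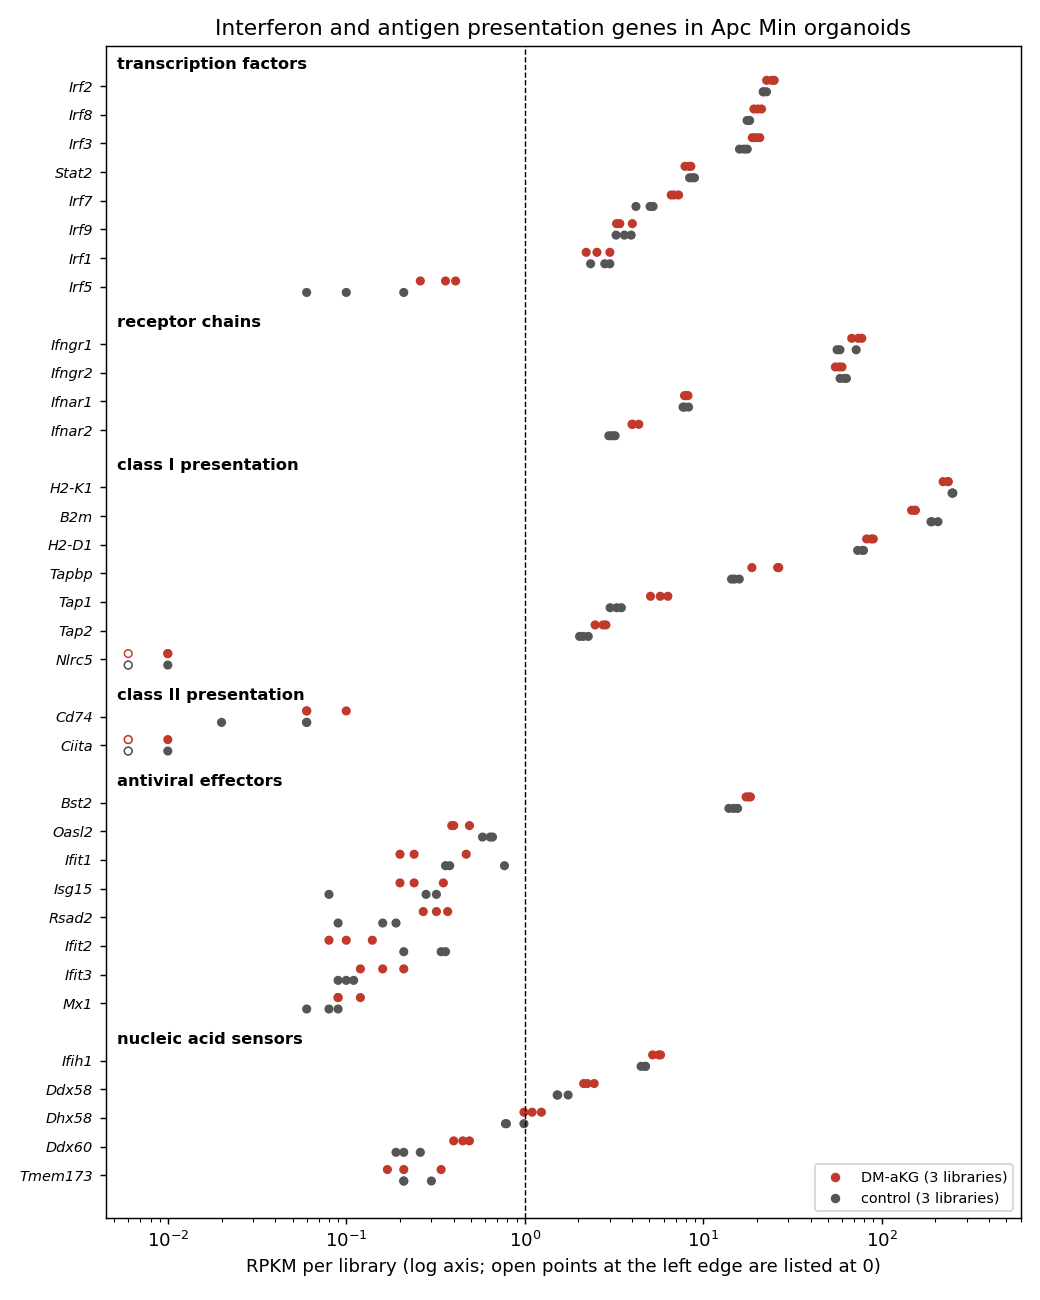
RPKM of all 34 genes in each of the 6 libraries on a log axis, grouped by function, with DM-aKG (red) drawn above control (grey) for each gene and the dashed line at 1 RPKM. The class I chains lie farthest to the right, and all antiviral effectors except Bst2 lie left of the line in both groups.

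Because interferon switches on antiviral genes through promoter elements, the promoters of some of the 34 genes are shown first. RefSeq promoter windows (GRCm38.p6, 250 bases before to 50 after an annotated start) were found for 27 of the 34 genes. The letters GAAA, any 2 bases and GAAA again, the core of an ISRE, were searched on both strands and occurred in 11 of these 27 genes, and in 3.99% of all genes with a window. The 11 were B2m, Bst2, Ddx58, Ddx60, Ifih1, Ifit1, Ifit3, Irf2, Isg15, Rsad2 and Stat2. The letters TTCNNNGAA, a GAS element, searched likewise, occurred in 7 of the 27 (Bst2, Ifit2, Ifnar1, Ifnar2, Irf1, Irf2 and Irf8) and in 9.55% of all genes with a window. In Bst2 the GAS match overlapped the first ISRE match. A match is a string of letters and not a measured binding site. The upstream 250 bases of B2m (abundant and lower in DM-aKG), Bst2 (the 1 antiviral effector above the limit) and Isg15 (an antiviral effector near 0) are given below in 5′ to 3′ direction of the gene, with ISRE core matches in capitals. Overlapping matches run together in Bst2 and Isg15.
B2m, chr2:122147437-122147686, plus strand: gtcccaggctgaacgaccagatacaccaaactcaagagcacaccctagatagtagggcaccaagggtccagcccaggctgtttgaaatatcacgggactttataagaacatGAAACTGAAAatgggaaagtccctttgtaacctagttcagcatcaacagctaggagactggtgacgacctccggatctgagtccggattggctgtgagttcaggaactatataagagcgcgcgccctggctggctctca
Bst2, chr8:71537473-71537722, minus strand: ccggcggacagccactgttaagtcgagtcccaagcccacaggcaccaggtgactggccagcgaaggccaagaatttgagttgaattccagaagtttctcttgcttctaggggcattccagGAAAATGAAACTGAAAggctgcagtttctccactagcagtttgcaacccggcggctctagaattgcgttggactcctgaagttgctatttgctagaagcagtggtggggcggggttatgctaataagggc
Isg15, chr4:156200819-156201068, minus strand: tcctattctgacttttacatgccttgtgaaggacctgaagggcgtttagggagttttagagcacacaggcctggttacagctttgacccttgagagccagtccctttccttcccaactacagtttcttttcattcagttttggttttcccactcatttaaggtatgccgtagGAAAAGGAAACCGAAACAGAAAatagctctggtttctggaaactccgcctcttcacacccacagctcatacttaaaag

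Tap1 shares its promoter with Psmb9, which encodes an immunoproteasome subunit and is transcribed in the opposite direction. The RefSeq starts of these neighbours are separated by 225 bases on chromosome 17, printed here on the plus strand (the strand of Tap1) because Tap1 had the largest rise of the 20 genes. Neither motif was found in the windows of Tap1 or Psmb9, which says only that these letters are absent there.
Tap1 to Psmb9, chr17:34187331-34187555, plus strand: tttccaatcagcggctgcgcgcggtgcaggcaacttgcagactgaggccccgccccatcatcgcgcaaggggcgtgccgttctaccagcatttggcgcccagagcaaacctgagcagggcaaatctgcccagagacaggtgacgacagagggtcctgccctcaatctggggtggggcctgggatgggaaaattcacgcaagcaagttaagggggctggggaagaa

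The interferon genes examined were at or near 0. Of 9 (Ifnb1, Ifng, Ifna1, Ifna2, Ifna4, Ifne, Ifnk, Ifnl2 and Ifnl3), 4 were listed at 0 in every library and none exceeded 0.05 RPKM in any. Receptor chains for interferons were present in both groups. Ifngr1, the ligand-binding chain of the interferon gamma receptor, was at 68.0, 77.4 and 74.1 RPKM in DM-aKG, against 58.4, 72.0 and 56.3 RPKM in control libraries. The groups overlapped through control replicate 2, and the log2 difference of 0.24 (95% interval 0.02 to 0.46) did not pass (limma, adjusted p = 0.0631). It passed without that library (log2 difference 0.35, limma, adjusted p = 0.00571) and without DM-aKG replicate 1 (0.29, limma, adjusted p = 0.0328). Its partner chain Ifngr2 had a log2 difference of -0.09 (95% interval -0.20 to 0.02) at 57.6 ± 2.45 RPKM in DM-aKG and 61.3 ± 2.56 RPKM in control cultures (mean ± SD, n = 3 each, as throughout). Ifngr2 did not pass (limma, adjusted p = 0.156), but under quantile normalization it was lower by the same test (log2 difference -0.17; limma, adjusted p = 0.0132).

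Of the type I receptor chains, Ifnar2, which binds the interferons with high affinity, rose. Its levels were 4.02, 3.99 and 4.36 RPKM in DM-aKG, against 3.21, 2.96 and 3.10 RPKM in control libraries. All treated libraries lay above all controls, and Ifnar2 rose by 0.36 ± 0.06 in log2 units (SE; limma, adjusted p = 0.00209). Ifnar1 was at 8.02, 7.86 and 8.22 RPKM in DM-aKG, against 7.71, 8.28 and 7.88 RPKM in control libraries, with a 95% interval of the log2 difference from -0.10 to 0.13. Ifnar2, Ifnar1 and Ifngr2 lie in a cluster on chromosome 16 of GRCm38, between 91372783 (start of Ifnar2) and 91565623 (end of Ifngr2), and of these 3 neighbours only Ifnar2 was called without rescaling; the differences between them were not tested. Outside the 34, Ifnlr1, the receptor chain for the interferon lambda family that acts on epithelia, rose as well, to 5.22 ± 0.269 RPKM in DM-aKG, against 3.35 ± 0.240 RPKM in control cultures (log2 fold change 0.57 ± 0.07; limma, adjusted p = 3.92e-04).

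Among 11 tested genes of receptor signalling outside the 34, 3 were higher and 1 lower, and 7 did not pass. Ifnlr1 and Stat3 were among the higher ones. Stat3, better known from interleukin 6 signalling, was at 19.3 ± 0.890 RPKM in DM-aKG and 15.7 ± 0.965 RPKM in control cultures (limma, adjusted p = 0.00380). The phosphatase gene Ptpn2, which restrains STAT signalling, fell by 0.18 ± 0.06 in log2 units (limma, adjusted p = 0.0351), and this call was lost when DM-aKG replicate 2 or 3 or any control library was left out (limma, adjusted p = 0.0592 to 0.12). The kinase gene Tyk2 had a log2 difference of 0.11 that did not pass (limma, adjusted p = 0.0830) but did without DM-aKG replicate 1 (limma, adjusted p = 0.0394). The median log2 fold change of the 11 was 0.04. Of them 27.3% were higher and 9.09% lower, against 30.9% and 24.7% of all tested genes.

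Of the transcription factor genes, 3 of 7 tested (42.9%) rose and none fell, against 30.9% higher and 24.7% lower over all tested genes, and the call of Irf8, 1 of the 3, depended on scaling and on single libraries. Irf7, the factor that amplifies type I interferon production, was at 6.87, 6.62 and 7.28 RPKM in DM-aKG, against 5.04, 4.20 and 5.24 RPKM in control libraries. The groups were well separated, and Irf7 rose by 0.48 ± 0.08 in log2 units (limma, adjusted p = 0.00198). Irf3, which viral sensors activate directly, was at 18.85, 19.67 and 20.75 RPKM in DM-aKG, against 17.65, 15.98 and 16.95 RPKM in control libraries. Again no library overlapped, with a smaller rise of 0.22 ± 0.05 (limma, adjusted p = 0.00982). Irf8, best known from myeloid and B cells, was at 19.3, 20.2 and 21.2 RPKM in DM-aKG, against 18.2, 18.1 and 17.6 RPKM in control libraries. No library overlapped, and per length the level of Irf8 was close to that of Irf3. Which cells expressed Irf8 was not tested. Its rise of 0.17 ± 0.05 (limma, adjusted p = 0.0189) lost its call under median centring (limma, adjusted p = 0.0658), under quantile normalization (0.127), and without DM-aKG replicate 2 (0.0551) or 3 (0.0691) or control replicate 3 (0.0748).

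The remaining factors did not pass. Irf2, a factor that competes with IRF1, was at 25, 22.68 and 24.20 RPKM in DM-aKG, against 21.80, 22.64 and 21.69 RPKM in control libraries (log2 difference 0.12, 95% interval 0.01 to 0.23; limma, adjusted p = 0.0703). The groups did not overlap, and without DM-aKG replicate 2 the difference passed (0.16; limma, adjusted p = 0.0383). Stat2 and Irf9 encode factors that act on the ISRE after type I interferon, and the intervals of their log2 differences were -0.18 to 0.05 for Stat2 and -0.23 to 0.20 for Irf9. Irf9 was at 3.56 ± 0.393 RPKM in DM-aKG and 3.61 ± 0.350 RPKM in control cultures, and Stat2 at 8.26 ± 0.319 RPKM in DM-aKG and 8.67 ± 0.275 RPKM in control cultures. Irf1, a main transducer of interferon gamma, was at 3.00, 2.54 and 2.21 RPKM in DM-aKG, against 3.00, 2.34 and 2.81 RPKM in control libraries, with a wide interval from -0.34 to 0.21. Irf5 was low, at 0.26, 0.41 and 0.36 RPKM in DM-aKG, against 0.10, 0.06 and 0.21 RPKM in control libraries. Irf5 overlaps 1045 bases of Tnpo3 on the opposite strand, a gene at 24.4 to 27.7 RPKM, and reads of these neighbours cannot be told apart without strand.

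Of 4 tested genes outside the 34 that belong to or are named after the IRF family, 1 was higher and 2 were lower, with a median log2 fold change of -0.24. Over all tested genes 30.9% were higher and 24.7% lower. The corepressor gene Irf2bp1 was at 18.5 ± 1.28 RPKM in DM-aKG and 26.3 ± 1.09 RPKM in control cultures, and fell by 0.50 ± 0.06 in log2 units (limma, adjusted p = 3.78e-04). Irf2bp2 was at 37.1, 25.6 and 28.9 RPKM in DM-aKG, against 44.2, 48.7 and 45.7 RPKM in control libraries, with DM-aKG replicate 1 nearest to the controls, and fell by 0.60 ± 0.12 (limma, adjusted p = 0.00386). Irf2bpl rose by 0.35 ± 0.06 (limma, adjusted p = 0.00207).

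**Figure D2:**
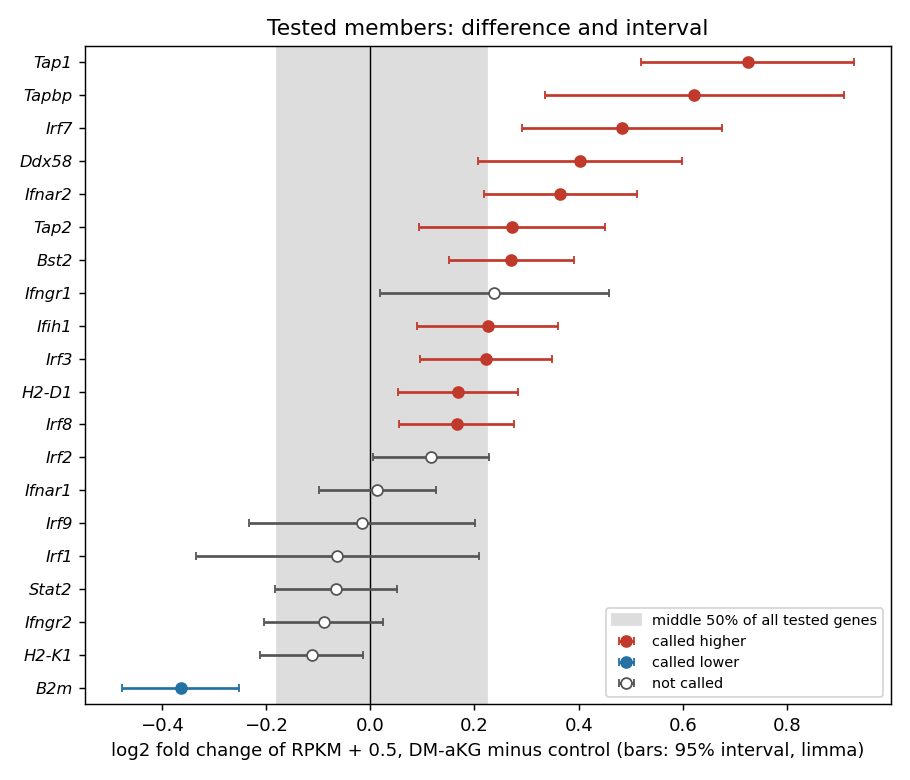
Log2 fold change (DM-aKG minus control) of the 20 tested genes with 95% intervals from limma, ordered by size, with the middle 50% of all tested genes shaded (-0.18 to 0.22). Tap1 (0.72) and Tapbp (0.62) stand at the top and B2m (-0.36) at the bottom.

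Of the 6 MHC class I genes tested among the 34, Tap1, Tap2, Tapbp and H2-D1 rose and B2m fell, while over all tested genes 30.9% were higher and 24.7% lower. Tap1, a subunit of the peptide pump, was at 5.07, 5.75 and 6.34 RPKM in DM-aKG, against 3.01, 3.48 and 3.28 RPKM in control libraries. Every treated library exceeded every control by more than the spread within either group, and Tap1 rose by 0.72 ± 0.09 in log2 units (limma, adjusted p = 3.96e-04). Tap2, the other subunit of the pump, was at 2.48, 2.75 and 2.85 RPKM in DM-aKG, against 2.27, 2.13 and 2.03 RPKM in control libraries. Its rise of 0.27 ± 0.08 was smaller (limma, adjusted p = 0.0185), and the call was lost without DM-aKG replicate 2, DM-aKG replicate 3 or control replicate 3 (limma, adjusted p = 0.0623, 0.0702 and 0.0729). Tapbp, the gene of tapasin, was at 18.8, 26.1 and 26.5 RPKM in DM-aKG, against 15.9, 14.4 and 15.0 RPKM in control libraries. DM-aKG replicate 1 stood nearer to the controls than to the other treated libraries, and the rise was 0.62 ± 0.12 (limma, adjusted p = 0.00389). Tapbpl, which encodes the tapasin-related peptide editor TAPBPR and is not among the 34, rose by 0.67 ± 0.06 to 11.2 ± 0.368 RPKM in DM-aKG, against 6.91 ± 0.485 RPKM in control cultures (limma, adjusted p = 1.02e-04).

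B2m, the light chain of all class I molecules, was at 154, 155 and 147 RPKM in DM-aKG, against 207, 191 and 189 RPKM in control libraries. It was the 1 gene of the 20 called lower, and fell by 0.36 ± 0.05 in log2 units (limma, adjusted p = 6.21e-04). The heavy chains H2-D1 and H2-K1 had log2 differences of opposite sign. H2-D1 was at 82.4, 87.3 and 89.8 RPKM in DM-aKG, against 79.1, 73.4 and 78.3 RPKM in control libraries. This rise of 0.17 ± 0.05 passed (limma, adjusted p = 0.0214), but the call was lost under median centring (limma, adjusted p = 0.0765), under quantile normalization (0.0699), and without DM-aKG replicate 2 (0.0671) or 3 (0.0743) or control replicate 2 (0.0715) or 3 (0.0526). H2-K1 was at 221, 236 and 235 RPKM in DM-aKG, against 250.2, 250.2 and 248 RPKM in control libraries. No library overlapped, and the log2 difference of -0.11 (95% interval -0.21 to -0.01) missed the threshold (limma, adjusted p = 0.0544), which it passed under median centring (limma, adjusted p = 0.0185) and quantile normalization (0.0162). H2-K1 and H2-D1 belong to a family of near-identical genes that may share reads, so their levels are uncertain. Nlrc5, the activator of class I transcription, was listed at 0.01 RPKM or less in every library, which is about 3 reads at most for its longest annotated transcript.

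**Figure D3:**
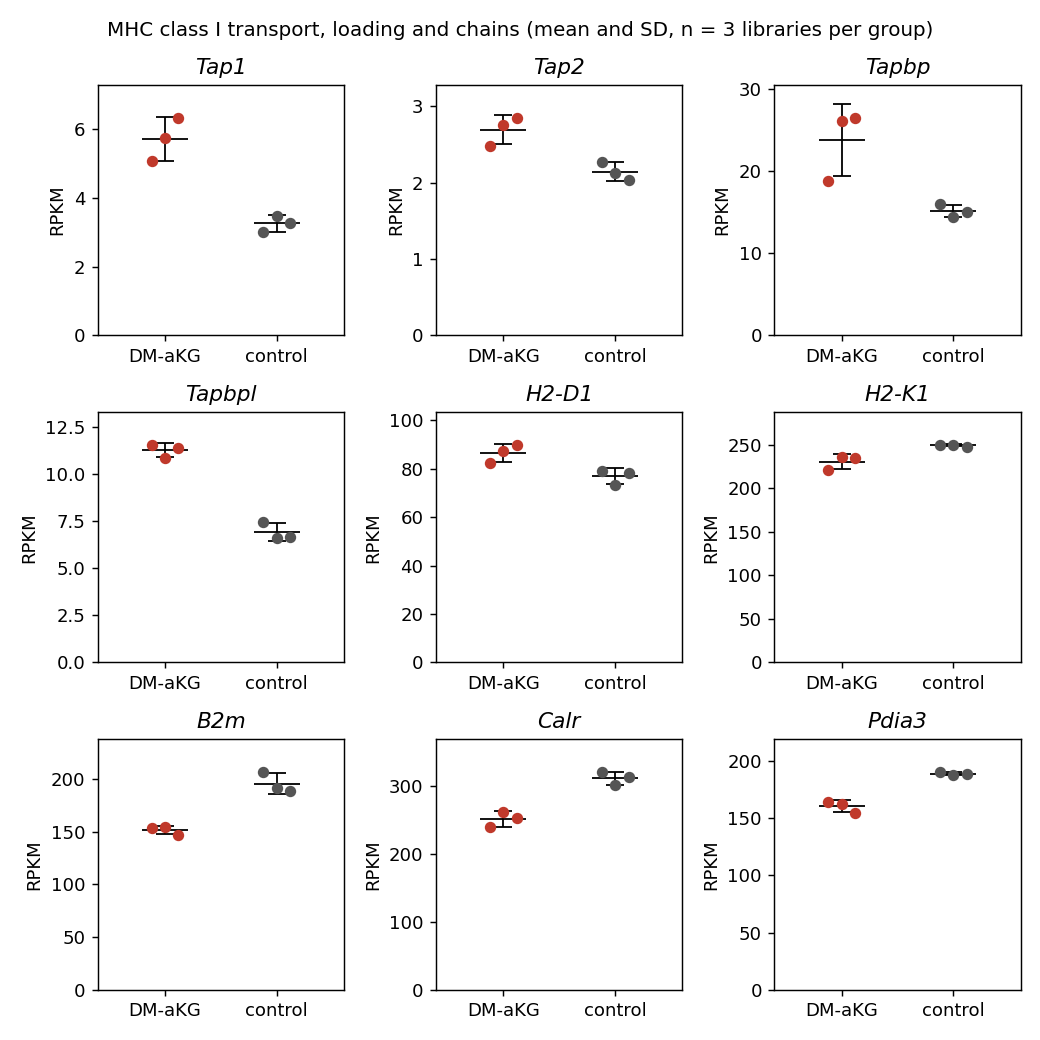
RPKM of 9 genes of MHC class I transport, loading and assembly in 3 DM-aKG (left, red) and 3 control (right, grey) libraries, with mean and SD, each axis starting at 0. Tap1, Tap2, Tapbp, Tapbpl and H2-D1 are higher in every treated library, and H2-K1, B2m, Calr and Pdia3 are lower in every treated library.

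Other genes of the class I pathway went both ways in equal number. Of 21 tested outside the 34, 5 were higher, 5 lower and 11 did not pass, with a median of -0.01 on the log2 scale. Each direction held 23.8%, against 30.9% higher and 24.7% lower over all tested genes. Calreticulin (Calr) and ERp57 (Pdia3), chaperones of class I and of many other glycoproteins, fell. Calr was at 251 ± 11.6 RPKM in DM-aKG and 312 ± 9.56 RPKM in control cultures (limma, adjusted p = 0.00145), and Pdia3 at 161 ± 5.20 RPKM in DM-aKG and 189 ± 1.26 RPKM in control cultures (limma, adjusted p = 0.00199). Psme2, a subunit of the proteasome activator PA28, rose to 45.8 ± 1.62 RPKM in DM-aKG, against 37.9 ± 0.859 RPKM in control cultures (limma, adjusted p = 0.00141). The non-classical chain gene H2-T24 rose to 3.27 ± 0.151 RPKM in DM-aKG, against 1.84 ± 0.180 RPKM in control cultures (limma, adjusted p = 3.27e-04), with the same doubt over near-identical copies. Psmb9, which shares the promoter region printed above with Tap1, was at 1.81, 1.93 and 1.86 RPKM in DM-aKG, against 1.43, 1.77 and 1.29 RPKM in control libraries. All treated libraries were above all controls here too, but the log2 difference of 0.25 ± 0.10 did not pass (limma, adjusted p = 0.0700), and the difference between Tap1 and Psmb9 was not tested.

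The MHC class II genes among the 34, Ciita and Cd74, were near the bottom of the scale. Ciita, the master activator of class II, was listed at 0 in 4 of the 6 libraries and at 0.01 RPKM in the others, about 2 reads at most. Cd74, the invariant chain, was at 0.10, 0.06 and 0.06 RPKM in DM-aKG, against 0.06, 0.06 and 0.02 RPKM in control libraries, or about 1 to 5 reads. These counts are too few to compare the groups. Of 14 further class II genes, 7 were tested, of which 2 were higher and 2 lower. Each direction held 28.6%, against 30.9% higher and 24.7% lower over all tested genes. Rfx5, a DNA-binding subunit needed for class I and class II promoters, rose to 4.51 ± 0.137 RPKM in DM-aKG, against 2.96 ± 0.162 RPKM in control cultures (log2 fold change 0.54 ± 0.06; limma, adjusted p = 3.27e-04). Its partner gene Rfxap fell by 0.15 ± 0.05 (limma, adjusted p = 0.0325) and the lysosomal protease gene Lgmn rose by 0.12 ± 0.04 (limma, adjusted p = 0.0324). Both calls were lost without DM-aKG replicate 2 or 3 or control replicate 2 or 3, and that of Rfxap also without control replicate 1 (limma, adjusted p = 0.0671 to 0.111 for Rfxap and 0.0605 to 0.119 for Lgmn). The rise of Lgmn was also 0.07 under median centring (limma, adjusted p = 0.146) and 0.06 under quantile normalization (0.193), and the fall of Rfxap did not pass at an equal RPKM sum (0.0931). Ifi30, a lysosomal thiol reductase, was abundant and fell, at 245 ± 12.5 RPKM in DM-aKG and 314 ± 3.41 RPKM in control cultures (limma, adjusted p = 6.68e-04). The class II chain gene H2-Ab1 was at 1.99 ± 0.564 RPKM in DM-aKG and 2.83 ± 0.425 RPKM in control cultures (log2 difference -0.43; limma, adjusted p = 0.0561). The chain genes H2-Aa and H2-Eb1 were under the limit, at no more than 0.03 and 0.42 RPKM in any library. H2-Ab1 varied with the libraries used: it passed as lower without DM-aKG replicate 3 (-0.60; limma, adjusted p = 0.0125) and under median centring (0.0396), while the difference was -0.28 without DM-aKG replicate 1 (limma, adjusted p = 0.111) and -0.18 without that library and control replicate 2 together (0.227).

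The 2 cytoplasmic RNA sensors that could be tested rose, while over all tested genes 30.9% were higher and 24.7% lower. Ddx58, the gene of RIG-I, was at 2.14, 2.45 and 2.24 RPKM in DM-aKG, against 1.53, 1.52 and 1.75 RPKM in control libraries. The groups did not overlap, and Ddx58 rose by 0.40 ± 0.08 in log2 units (limma, adjusted p = 0.00493). Ifih1, the gene of MDA5, was at 5.77, 5.63 and 5.21 RPKM in DM-aKG, against 4.74, 4.49 and 4.75 RPKM in control libraries, a rise of 0.23 ± 0.06 (limma, adjusted p = 0.0125). Their relative Dhx58, which encodes LGP2 and lay just under the limit, was at 0.99, 1.10 and 1.24 RPKM in DM-aKG, against 0.99, 0.78 and 0.79 RPKM in control libraries, with a tie between the groups. Ddx60, reported as a helper of RIG-I, was at 0.45, 0.49 and 0.40 RPKM in DM-aKG, against 0.26, 0.21 and 0.19 RPKM in control libraries. Tmem173, the gene of the DNA-sensing adaptor STING, was at 0.34, 0.17 and 0.21 RPKM in DM-aKG, against 0.21, 0.30 and 0.21 RPKM in control libraries, low and overlapping.

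Of 15 tested genes of nucleic acid sensing outside the 34, 6 were higher, 1 was lower and 8 did not pass, with a median of 0.16. These shares of 40% higher and 6.67% lower stood against 30.9% and 24.7% of all tested genes. Aim2, a sensor of cytoplasmic DNA that assembles an inflammasome, was at 2.39, 2.11 and 2.10 RPKM in DM-aKG, against 1.19, 1.07 and 0.95 RPKM in control libraries. It had the largest difference of that list, a rise of 0.78 ± 0.09 in log2 units (limma, adjusted p = 3.79e-04). Ikbke, a kinase that phosphorylates IRF3 and IRF7, rose to 10.1 ± 0.506 RPKM in DM-aKG, against 7.06 ± 0.490 RPKM in control cultures (limma, adjusted p = 5.77e-04). Traf3, Ddx41 and the double-stranded RNA kinase gene Eif2ak2 rose by 0.34 ± 0.06, 0.26 ± 0.05 and 0.19 ± 0.05, and the call of Eif2ak2 was lost under median centring (limma, adjusted p = 0.0557), under quantile normalization (0.0556), without DM-aKG replicate 2 (0.0623) and without control replicate 2 (0.0518).

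The antiviral effectors, the genes that interferon induces most strongly in other settings, were at low levels with and without DM-aKG, with Bst2 as the exception. Bst2, the gene of tetherin, which holds budding viruses at the cell surface, was at 18.40, 17.97 and 17.40 RPKM in DM-aKG, against 13.9, 14.8 and 15.6 RPKM in control libraries. All treated libraries lay above all controls, and Bst2 rose by 0.27 ± 0.05 in log2 units (limma, adjusted p = 0.00328). The other 7 effectors were under a mean of 1 RPKM. Isg15, a ubiquitin-like modifier, was at 0.35, 0.20 and 0.24 RPKM in DM-aKG, against 0.32, 0.28 and 0.08 RPKM in control libraries, which is about 2 to 9 reads per library. Mx1, a dynamin-like GTPase, reached 0.12 RPKM at most. The promoters of B2m, Bst2 and Isg15 printed above were chosen for the level or call of these genes. Their ISRE core matches therefore do not show how the element relates to level.

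Within the low effectors the direction was mixed. Rsad2, the gene of viperin, was at 0.37, 0.27 and 0.32 RPKM in DM-aKG, against 0.19, 0.16 and 0.09 RPKM in control libraries. Ifit3, an RNA-binding effector, was at 0.16, 0.21 and 0.12 RPKM in DM-aKG, against 0.10, 0.09 and 0.11 RPKM in control libraries, so both were higher in all treated libraries. Its neighbour Ifit2 on chromosome 19 went the other way, at 0.14, 0.08 and 0.10 RPKM in DM-aKG, against 0.34, 0.36 and 0.21 RPKM in control libraries. Oasl2, a relative of the oligoadenylate synthetases, was also lower in all treated libraries, at 0.49, 0.39 and 0.40 RPKM in DM-aKG, against 0.64, 0.66 and 0.58 RPKM in control libraries. Ifit1 overlapped, at 0.47, 0.24 and 0.20 RPKM in DM-aKG, against 0.77, 0.36 and 0.38 RPKM in control libraries. Over all 14 genes under the limit, 4 (Irf5, Ifit3, Rsad2 and Ddx60) were higher and 2 (Ifit2 and Oasl2) lower in every treated library. Among all genes under the limit with a value above 0 in some library, 21.9% had groups that did not overlap, 12.7% higher and 9.17% lower. When no filter was applied, Irf5, Rsad2 and Ddx60 passed as higher (limma, adjusted p = 0.0207, 0.0138 and 0.00385) and Ifit2 and Oasl2 as lower (0.0115 and 0.0196), while Ifit3 did not pass (0.0817). In that fit 36.1% of all tested genes were called, and 20.6% were higher, so calls were common there. Values this close to the 2 decimals of the table are imprecise, and the highest of the 14 genes in any library was 1.24 RPKM.

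A wider set of 49 interferon-stimulated genes outside the 34 had nearly as many called lower as higher. Of these 49, 30 were under the limit, 3 of them listed at 0 in every library. Of the 19 tested, 5 were higher, 4 lower and 10 did not pass, with a median of -0.02 on the log2 scale. That is 26.3% higher and 21.1% lower, against 30.9% and 24.7% of all tested genes. Ifitm2, a membrane protein that blocks virus entry, had the largest difference, at 72.8, 54.3 and 59.3 RPKM in DM-aKG, against 152, 185 and 160.0 RPKM in control libraries. The level fell by 1.41 ± 0.11 in log2 units (limma, adjusted p = 6.18e-05), and reads may have been shared with similar family members. Samd9l, a growth-restraining antiviral gene, fell by 0.31 ± 0.08 (limma, adjusted p = 0.0121). In the other direction Ifi35 rose to 15.9 ± 0.783 RPKM in DM-aKG, against 9.82 ± 0.466 RPKM in control cultures (log2 fold change 0.67 ± 0.06; limma, adjusted p = 7.06e-05). The helicase-domain genes Helz2 and Znfx1 rose by 0.46 ± 0.06 and 0.37 ± 0.06.

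**Figure D4:**
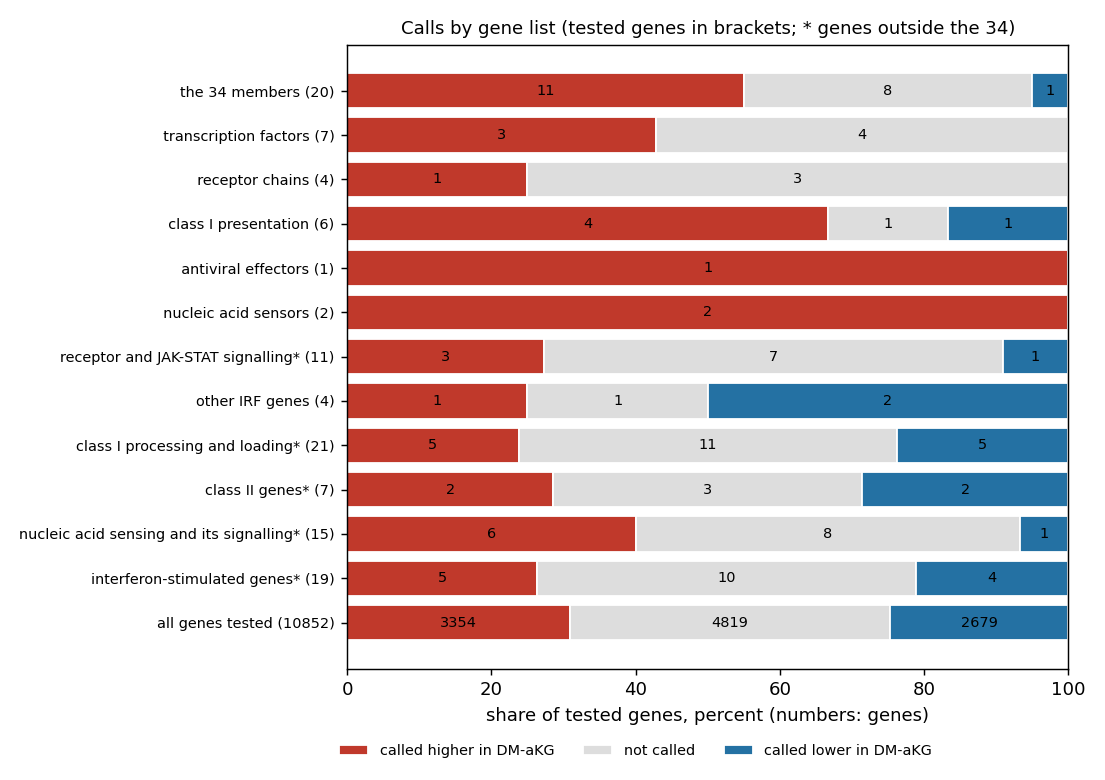
Share of tested genes called higher (red), not called (grey) and called lower (blue) in DM-aKG for the 34 genes, for their functional groups and for lists of other genes of the same pathways, with all tested genes in the last row. The 34 genes have 11 higher and 1 lower of 20 tested, and the interferon-stimulated genes outside them 5 higher and 4 lower of 19.

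Some of the genes overlap others on GRCm38, where reads could be shared, since no source used here says whether counting used strand. B2m lies wholly within Patl2 on the opposite strand, but Patl2 was at 0.01 RPKM or less in every library. In GENCODE, Tapbp shares 3422 bases with Zbtb22 on the same strand, so counting by strand would not separate their reads there. The RefSeq start of Tapbp, at 33919478, lies downstream of its GENCODE start, at 33915899. Zbtb22 was at 12.01 to 13.99 RPKM in DM-aKG and 13.73 to 14.52 RPKM in control libraries and did not pass (limma, adjusted p = 0.219). Irf3 shares 1065 bases with Bcl2l12 on the opposite strand, at 5.89 to 7.29 RPKM in DM-aKG and 6.99 to 7.36 RPKM in control libraries. Irf9 shares 123 bases with Rnf31 on the same strand. Rnf31 was at 6.93 to 7.59 RPKM in DM-aKG and 4.84 to 5.85 RPKM in control libraries. The annotated extents of Tap1 and Psmb9 share 212 bases in GENCODE, where Psmb9 starts further upstream than in RefSeq. On that annotation Tapbp (33915899 to 33929292), H2-K1 (33996017 to 34000347), Tap1 (34187553 to 34197225), Tap2 (34203527 to 34216321) and H2-D1 (35262730 to 35267499) all lie on chromosome 17, in the major histocompatibility complex, and B2m (122147686 to 122153083) lies apart from them on chromosome 2.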

How the data were processed

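RNA was sequenced from 3 DM-aKG and 3 control cultures. The authors deposited RPKM values with 2 decimals, 1 column per sample, matched by title. The tools and build named, per the submitters' processing notes, were HISAT2 2.0.4, CASAVA 1.8, Partek and mm10. Not given in the sources used here are their roles, the annotation and the counting rule. A read is a visible step in the RPKM of very short genes (miRNA, snoRNA), and depth was worked out from that step. As a check, values at 1 read were left out. Of the other values up to about 5 reads, 78.3% to 85.0% were within 0.05 reads of a whole number. This share would be 10% if they were placed evenly. Such depths give counting error only.

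Genes with a mean of at least 1 RPKM over all libraries were analysed as log2(RPKM + 0.5), a scale that understates the change of low genes, with limma 3.58.1 in R 4.3.3 (lmFit, then eBayes with trend, two-sided). Groups had no covariate, and p-values were Benjamini-Hochberg adjusted over all tested genes. The procedure was tested on simulated data. The 34 genes and all lists were chosen with earlier results of these data known. Named genes were the 34 and, from each list of other pathway genes, up to 5 tested genes with the smallest p; others were named after their values were seen, and some genes that this rule names are not reported here. Positions are from GENCODE M21 (GRCm38, which mm10 names), promoters from RefSeq (GRCm38.p6). No batch is given in the labels. The alternatives tried were other pseudocounts, filters, scalings and variance models, a replicate block and leaving out each library. Approximate reads use the longest GENCODE transcript. Python 3.11.15, pandas 2.3.3 and matplotlib 3.10.9 were used.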

Additional observations from a re-analysis of the deposited data

How the results depend on the processing

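The alternatives were 2 other pseudocounts, 2 other filters, 3 rescalings, 2 variance or weight models, the replicate block, each library left out, and control replicate 2 and DM-aKG replicate 1 left out together, the last chosen after seeing the data. Of 337 values for the tested genes among the 34, 309 kept their side of the threshold, 14 lost the call and 14 gained it. No gene changed sign where it was called in either fit. Without a call, the sign of Irf1, Irf9 and Ifnar1 did change in some settings. Their log2 differences ran from -0.25 to 0.03, from -0.16 to 0.04 and from -0.03 to 0.05. The number called lower, 1 in the reported fit, was 3 with no filter (34 tested), 2 under median centring, 3 under quantile normalization, 2 with array weights and 2 without the pair of libraries. The median log2 fold change, 0.20, was 0.13 with no filter, 0.15 under median centring, 0.13 under quantile normalization and 0.23 at an equal RPKM sum. More genes were tested with no filter; otherwise the cause was not tested. With each library left out, 8 to 12 of the genes were higher, 1 was lower, and the median was 0.16 to 0.20. In these fits 2699 to 3660 of all tested genes were higher and 2049 to 3200 lower.

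The replicate block gave 12 higher (Ifngr1 added; limma, adjusted p = 0.0243) and 1 lower. Same-numbered libraries did not deviate together (r = -0.08, -0.11 and 0.01 for replicates 1, 2 and 3). With so few libraries per group, these values cannot show whether libraries with the same number share an origin. Irf1 was called lower only without the pair of libraries (limma, adjusted p = 0.0346). The 14 low genes were near the rounding of the table.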

Other observations

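Apart from the listed genes, 51 tested genes lie between the start of Tapbp and the end of H2-D1 on chromosome 17 (33915899 to 35267499, GRCm38), a region looked at after the data were seen. Of these, 15 were higher, 7 lower and 29 did not pass, 29.4% and 13.7% against 30.9% and 24.7% over all tested genes. Some of the larger differences among these genes follow. Genes of the antigen presentation lists had been left out beforehand, so their absence here is no result. Ly6g6c, a gene of the Ly6 surface protein family, was at 2.87 ± 1.18 RPKM in DM-aKG and 0.463 ± 0.323 RPKM in control cultures (log2 fold change 1.79 ± 0.32; limma, adjusted p = 0.00241), and its neighbour Ly6g6e was at 2.06 ± 0.230 RPKM in DM-aKG and 0.473 ± 0.111 RPKM in control cultures (1.40 ± 0.12; limma, adjusted p = 9.04e-05). The inducible heat shock gene Hspa1b, which has a near-identical copy, was at 7.21 ± 0.624 RPKM in DM-aKG and 3.02 ± 0.576 RPKM in control cultures (limma, adjusted p = 2.37e-04). Cfb, the gene of complement factor B, was lower, at 19.1 ± 0.362 RPKM in DM-aKG and 40.1 ± 1.82 RPKM in control cultures, and fell by 1.05 ± 0.05 in log2 units (limma, adjusted p = 4.14e-06).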
